A study of Mus musculus with 12 samples.

Results

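The guanylate-binding proteins (GBPs) and the immunity-related GTPases (IRGs) are 2 families of GTPases that cells make in response to interferon. Their messenger RNAs were followed here in CD4+ T cells of mice with and without Rinl. The members are the 10 rows of the deposited tables whose gene name is Gbp2, Gbp3, Gbp4, Gbp5, Gbp7, Gbp9, Irgm1, Irgm2, Igtp or Iigp1, of 55487 genes in all. All 10 were found, and all 10 passed the filter on low counts, as did 15905 genes in total.

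T cells were sorted by flow cytometry from spleen and peripheral lymph nodes. The 4 groups were naive cells of Rinl-KO mice (KO naive), naive cells of wild-type mice (WT naive), effector cells of Rinl-KO mice (KO effector) and effector cells of wild-type mice (WT effector), with 3 RNA-seq libraries each. Naive cells were taken from the gate low in CD44, and effector cells from the gate high in CD44. Rinl encodes an exchange factor for RAB5 family GTPases of the endosome, and the series asked what it does in CD4+ T cells. The labels give neither the altered part of Rinl nor the strain, the age or any pooling of the mice. They do not say either whether each library stands for an animal of its own, so p-values measure the spread between these libraries, which may be technical.

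Libraries are named by the numbers of the table columns, 7 to 9 for KO naive, 1 to 3 for WT naive, 10 to 12 for KO effector and 4 to 6 for WT effector. KO naive libraries held 20072199 to 24320247 counts, against 12409965 to 19584111 in WT naive libraries. KO effector libraries held 11606251 to 20381010 counts, against 12893396 to 16428862 in WT effector libraries. Rinl was at 32.2 to 34.4 CPM (the count scaled to library size with edgeR's TMM factors) in KO naive against 285.5 to 299 CPM in WT naive, and at 45.8 to 49.4 CPM in KO effector against 437 to 463 CPM in WT effector. The T cell markers Cd3e, Cd3g, Cd4, Lck, Cd28 and Thy1 summed to 4080 to 4620 CPM in every library. The effector markers Cd44, Itgb1, S100a4, S100a6, Il2rb and Ccl5 summed to 2220 to 2430 CPM in KO effector and 172 to 185 CPM in KO naive, and to 2680 to 2820 CPM in WT effector and 153 to 172 CPM in WT naive.

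Interferon gamma binds its receptor and activates the kinases JAK1 and JAK2, which signal to transcription factors in the nucleus. Promoters of induced genes carry GAS and ISRE elements, and IRF family factors such as IRF1 and IRF9 bind the ISRE. The GBPs, dynamin-like GTPases, and the IRGs gather on vacuoles and membranes that hold pathogens such as Toxoplasma gondii, and open them or expose them to inflammasomes. Among the IRGs, IRGM1, IRGM2 and IGTP (also called IRGM3) sit on host membranes and hold effector IRGs such as IIGP1 (also called IRGA6) inactive there. In mice that lack Irgm1, CD4+ T cells exposed to interferon gamma die, which is the best known link of the family to this cell type.

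The genes lie in clusters. Gbp5, Gbp7, Gbp3 and Gbp2 are on mouse chromosome 3, with Gbp2b between Gbp3 and Gbp2, and Gbp9 and Gbp4 are on chromosome 5. Irgm1 is on chromosome 11 beside Tgtp1, Tgtp2 and Ifi47, Igtp and Irgm2 lie next to each other farther along chromosome 11, and Iigp1 is on chromosome 18. Gene models on the same strand overlap for Gbp4, Gbp8 and Gbp9, and for Igtp and Irgm2. The sources used here do not give the treatment of reads in shared stretches, and the values of these genes are uncertain to that extent.

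Promoter sequence shows what the members share at their start sites. RefSeq promoters on build GRCm38.p6, 250 bases before to 50 bases after each start, were matched for 7 of the 10 members, with 8 promoters in all, since Gbp3 has 2. Gbp4, Gbp9 and Iigp1 are named only. Both strands were searched for GAS letters, TTCNNNGAA, and for ISRE letters, which are GAAA, any 2 bases and GAAA. GAS letters were in 4 of the 8 member promoters (50%) and in 8.3% of 32851 promoters of the genome. ISRE letters were in 7 of the 8 (87.5%) and in 3.44% of all promoters. Both motifs were in 4 of the 8 and in 0.454% of all promoters, and no GAS site overlapped an ISRE site. With only the 250 bases before the start searched, the member counts were the same and the shares of all promoters were 7.02%, 2.98% and 0.332%.

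The last 110 bases before the start of the 4 chromosome 3 members and of Irgm1 follow, to show where these sites stand, with GAS and ISRE letters in capitals. They are GRCm38.p6 chr3:142496824-142496933 (Gbp5, plus strand), chr3:142530226-142530335 (Gbp7, plus strand), chr3:142559934-142560043 (Gbp3, plus strand), chr3:142620553-142620662 (Gbp2, plus strand) and chr11:48871421-48871530 (Irgm1, minus strand).
Gbp5: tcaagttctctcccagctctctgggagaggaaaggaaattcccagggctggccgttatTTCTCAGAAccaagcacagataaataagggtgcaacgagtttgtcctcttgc
Gbp7: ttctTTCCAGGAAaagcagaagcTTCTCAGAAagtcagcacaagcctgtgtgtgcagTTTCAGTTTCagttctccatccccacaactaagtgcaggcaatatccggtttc
Gbp3: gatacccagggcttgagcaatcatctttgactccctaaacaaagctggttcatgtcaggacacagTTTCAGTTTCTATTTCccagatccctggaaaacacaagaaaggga
Gbp2: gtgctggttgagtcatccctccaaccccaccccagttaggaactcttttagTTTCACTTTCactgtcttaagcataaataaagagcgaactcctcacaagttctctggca
Irgm1: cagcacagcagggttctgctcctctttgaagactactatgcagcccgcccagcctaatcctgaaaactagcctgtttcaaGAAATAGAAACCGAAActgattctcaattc
Gbp5 and Gbp7 hold GAS and ISRE letters, and Gbp3, Gbp2 and Irgm1 hold ISRE letters alone. A further GAS site and the ISRE site of Gbp5 lie farther from the start, at 245 and 165 bases before it. In Gbp3 and in Irgm1, 2 ISRE matches overlap each other, and the other Gbp3 promoter holds neither motif.

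In Igtp and Irgm2 the GAS letters are followed after 2 bases by ISRE letters on the same strand. The same order and spacing stands in the promoters of the IRG genes Tgtp1, Tgtp2 and Gm12185, which are no members. The 42 bases around this block are GRCm38.p6 chr11:58199499-58199540 (Igtp, plus strand), chr11:58214890-58214931 (Irgm2, plus strand), chr11:48992305-48992346 (Tgtp1, minus strand), chr11:49064264-49064305 (Tgtp2, minus strand) and chr11:48927239-48927280 (Gm12185, minus strand).
Igtp: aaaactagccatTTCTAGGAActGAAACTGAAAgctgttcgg
Irgm2: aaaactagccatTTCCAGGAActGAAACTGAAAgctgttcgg
Tgtp1: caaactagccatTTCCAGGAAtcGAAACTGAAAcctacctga
Tgtp2: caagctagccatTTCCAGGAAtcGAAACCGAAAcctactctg
Gm12185: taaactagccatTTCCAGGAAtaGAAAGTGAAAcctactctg
A motif match is a description of letters. Binding was not measured.

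Per length, the 10 members covered a wide range in naive cells and kept much the same order in each group. In KO naive cells Igtp stood highest, at 133 ± 6.5 FPKM (counts scaled to gene length and library size, SD, n = 3), and Gbp3 lowest, at 7.3 ± 0.443 FPKM. In WT naive cells they stood at 106.5 ± 1.81 and 5.19 ± 0.244 FPKM. Igtp was first in all 4 groups. After Igtp in KO naive came Irgm1 at 75.5 ± 1.38 FPKM, Gbp4 at 69.9 ± 1.61, Gbp9 at 49.8 ± 2.74, Irgm2 at 44.8 ± 2.02 and Gbp2 at 40.2 ± 1.19 FPKM, and the libraries of neighbours in this order did not overlap. Gbp7 at 22.1 ± 0.586 FPKM and Iigp1 at 21.5 ± 1.62 FPKM did overlap, and Gbp5 stood below them at 12.01 ± 0.941 FPKM. In WT naive the libraries of Gbp4 and Irgm1 overlapped, as did those of Irgm2 and Gbp2.

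In effector cells the low end of the order closed up. Gbp3 stood at 24.8 ± 2.37 FPKM in KO effector and 21.6 ± 2.77 FPKM in WT effector, and Gbp5 at 23.1 ± 0.802 and 19.4 ± 1.46 FPKM (n = 3 each). The libraries of Gbp3 and Gbp5 overlapped in KO effector, and those of Gbp3, Iigp1 and Gbp5 overlapped from neighbour to neighbour in WT effector. Summed over the members, levels were 1717 ± 95.7 CPM in KO effector, 1500 ± 98 CPM in WT effector, 1504 ± 55.2 CPM in KO naive and 1260 ± 37.8 CPM in WT naive. That is 0.12% to 0.187% of all counts in a library. In bulk samples fewer cells that express a gene and less RNA per cell cannot be told apart.

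**Figure D1:**
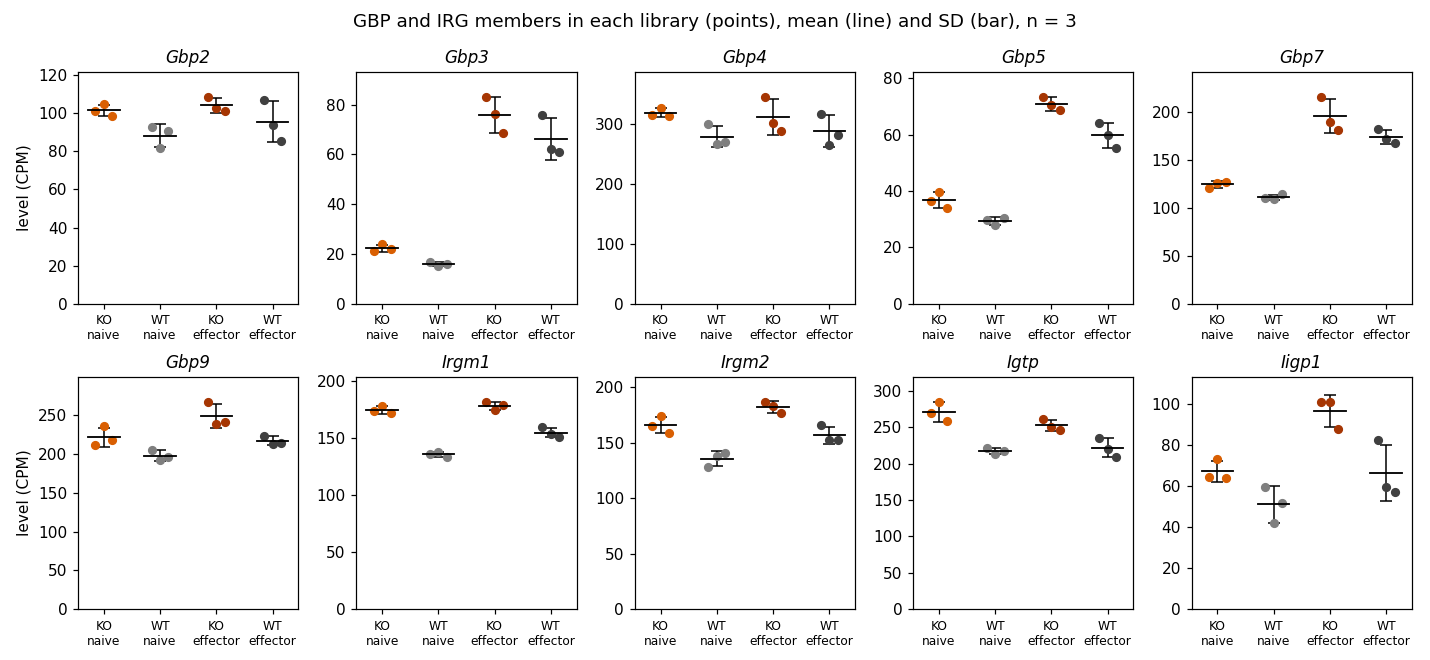
Level of each member in CPM (vertical axes, from 0) in the 3 libraries of KO naive, WT naive, KO effector and WT effector cells; points are libraries, lines means and bars SD. In naive cells the KO points lie above the WT points for all 10 members, and Gbp3, Gbp5 and Gbp7 stand higher in effector than in naive cells.

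In naive cells 5 of the 10 members rose in KO and none fell. These were the 3 regulatory IRGs Irgm1, Irgm2 and Igtp and the GBPs Gbp3 and Gbp5, by 1.23- to 1.4-fold. Over all tested genes 0.679% rose, 0.497% fell and 1.18% changed in either direction (edgeR quasi-likelihood test, Benjamini-Hochberg adjusted p of at most 0.05). The median log2 fold change of the members was 0.306, with a range of 0.166 to 0.488, and that of all tested genes was 0. In all 10 members the 3 KO libraries lay above the 3 WT libraries, as in 10.7% of all tested genes, while 9.72% had every KO library below every WT library.

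Irgm1, needed for the control of intracellular bacteria, was at 174, 178 and 172 CPM in KO naive against 136, 138 and 133 CPM in WT naive. The groups were far apart beside their spread (log2 0.36 ± 0.0415 SE, edgeR adjusted p = 1.8e-05). Igtp, an IRG of the endoplasmic reticulum needed for resistance to Toxoplasma, was at 269, 285 and 258 CPM in KO naive against 221, 213 and 217 CPM in WT naive. Its lowest KO library stood above its highest WT library, at log2 0.32 ± 0.048 and an edgeR adjusted p of 7.7e-04. Irgm2, a brake on the caspase-11 inflammasome, was at 165, 174 and 159 CPM in KO naive against 128, 138 and 141 CPM in WT naive (log2 0.29 ± 0.049, edgeR adjusted p = 0.0023). With Igtp and Irgm2 summed because their models overlap, the change was 0.31 ± 0.047 (adjusted p = 8.3e-04). The sum shows a rise of the pair and not of each gene apart.

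Of the GBPs, Gbp3 had the largest fold change among the members, from the lowest levels. It was at 21.4, 23.9 and 21.8 CPM in KO naive against 16.6, 15.2 and 16.2 CPM in WT naive, with no overlap (log2 0.49 ± 0.099, edgeR adjusted p = 0.016). Gbp5, which promotes assembly of the NLRP3 inflammasome, was at 36.6, 39.8 and 34.1 CPM in KO naive against 29.8, 27.9 and 30.5 CPM in WT naive. Its groups were also apart (log2 0.33 ± 0.069, edgeR adjusted p = 0.014).

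The other members lay higher in KO without passing. Gbp2, which coats pathogen vacuoles, was at 98.7 to 105 CPM in KO naive and 81.6 to 92.6 CPM in WT naive (log2 0.20, edgeR adjusted p = 0.16). Gbp7, which helps the phagocyte NADPH oxidase to assemble, was at 121 to 127 CPM in KO naive and 109 to 114 CPM in WT naive (log2 0.17, adjusted p = 0.17). Gbp4 (log2 0.19, adjusted p = 0.24) and Gbp9 (0.17, adjusted p = 0.13) were alike in size. Iigp1, the effector IRG among the members, had the widest spread, with 64.2 to 73.3 CPM in KO naive and 41.9 to 59.8 CPM in WT naive. Its log2 fold change of 0.40 ± 0.165 had a 95% interval of 0.02 to 0.77 and an edgeR adjusted p of 0.38.

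The calls of Irgm1, Irgm2 and Igtp held under each alternative processing tried. Those of Gbp3 and Gbp5 did not: without WT naive library 2 or without KO naive library 8 the members called were 3, namely Irgm1, Irgm2 and Igtp. KO naive libraries were deeper than WT naive ones, and with counts thinned to the smallest library 4 members were called and Gbp3 was lost.

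In effector cells 5 of 10 members rose in KO and none fell, against 1.45% of all tested genes that rose, 1.72% that fell and 3.16% that changed. They were Irgm1, Irgm2, Igtp, Gbp5 and Gbp9, by 1.14- to 1.19-fold. The median log2 fold change of the members was 0.2, with a range of 0.117 to 0.543, beside 0.002 over all genes. KO libraries lay above WT libraries in 6 of the 10 members, as in 9.18% of all tested genes, while 8.73% had the reverse.

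Irgm1 was at 182, 175 and 179 CPM in KO effector against 160, 154 and 151 CPM in WT effector. The libraries did not overlap (log2 0.20 ± 0.042, edgeR adjusted p = 0.0062). Irgm2 was at 187, 183 and 177 CPM in KO effector against 166, 153 and 152 CPM in WT effector (log2 0.22 ± 0.049, edgeR adjusted p = 0.015). Igtp was at 261, 250 and 247 CPM in KO effector against 236, 220 and 210 CPM in WT effector (log2 0.19 ± 0.048, edgeR adjusted p = 0.033). In both genes the KO libraries stood above the WT ones, and the sum of Igtp and Irgm2 gave 0.20 ± 0.047 with an adjusted p of 0.018.

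Gbp5 was at 73.5, 70.6 and 68.8 CPM in KO effector against 64.3, 59.9 and 55.3 CPM in WT effector (log2 0.25 ± 0.063, edgeR adjusted p = 0.03). Gbp9 was at 267, 239 and 242 CPM in KO effector against 224, 213 and 214.5 CPM in WT effector (log2 0.20 ± 0.051, edgeR adjusted p = 0.03). Neither gene's groups overlapped. The call of Gbp9 was lost when its overlapping models were counted together: Gbp4, Gbp8 and Gbp9 summed gave 0.14 ± 0.058, with an adjusted p of 0.25.

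Iigp1 had the largest fold change and the widest spread. It was at 101, 101 and 87.8 CPM in KO effector against 82.4, 59.6 and 57.4 CPM in WT effector. WT effector library 4 stood well above the other two, and the log2 fold change of 0.54 ± 0.161 (95% interval 0.18 to 0.91) had an edgeR adjusted p of 0.13. Gbp7 came close, with 182 to 216 CPM in KO effector and 168 to 182 CPM in WT effector (log2 0.17, adjusted p = 0.086). Gbp2 (0.12, adjusted p = 0.37), Gbp3 (0.20, adjusted p = 0.2) and Gbp4 (0.12, adjusted p = 0.46) overlapped between the groups.

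These effector calls depended on the fit. With only the 6 effector libraries fitted, edgeR called 0 of the 10 members, with 7 at an unadjusted p of at most 0.05, while DESeq2 and limma-voom on all 12 libraries called 6 each. Leaving out one effector library gave 8 calls without WT library 4, 1 without WT library 5 or 6, 2 without KO library 10 or 11 and 6 without KO library 12, and Irgm1 was among the calls in each of these fits.

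**Figure D2:**
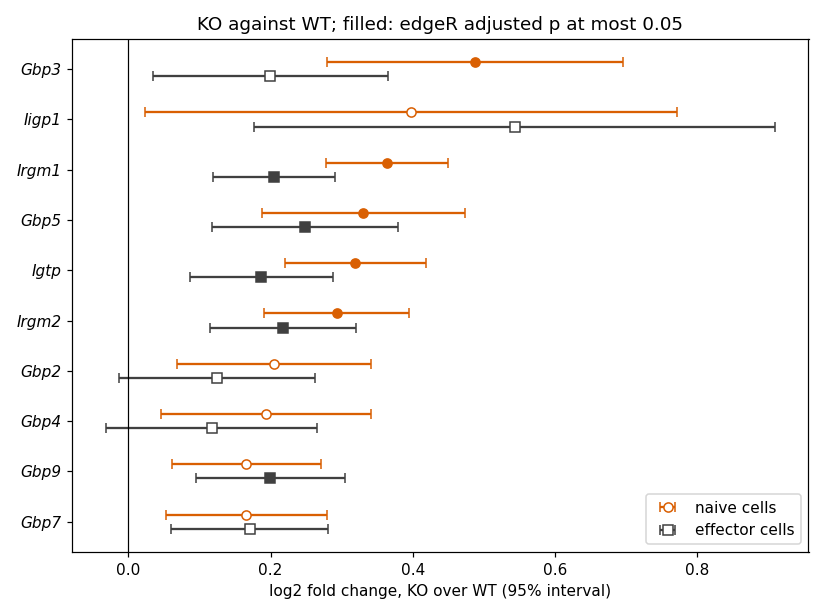
Log2 fold change of KO over WT (horizontal axis) for each member in naive cells (circles) and effector cells (squares), with 95% intervals; filled symbols passed the edgeR test. All points lie above 0, from 0.117 to 0.543, and Iigp1 has the widest intervals.

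The KO effect was not shown to differ between naive and effector cells for any member. The difference of the log2 fold changes, effector minus naive, ran from -0.288 (Gbp3) to 0.146 (Iigp1) with a median of -0.078. By edgeR 0 of 10 members passed, 2 had an unadjusted p of at most 0.05, and 0.145% of all genes passed. DESeq2, limma-voom and limma on FPKM also called 0. The 2 were Gbp3, with a 95% interval of -0.55 to -0.02 and an adjusted p of 0.49, and Irgm1, at -0.16 with an interval of -0.28 to -0.04 and an adjusted p of 0.37. The intervals of the other members leave room for a difference in either direction, such as that of Iigp1, from -0.38 to 0.67.

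Of 19 further GBP and IRG genes, 17 were tested, Irgc1 was under the filter and Irgc was not matched. In naive cells 5 of the 17 rose in KO and 0 fell, where 0.679% of all tested genes rose and 0.497% fell. The median of the 17 was 0.322. The 5 were Gbp10 (log2 0.45), the effector IRGs Tgtp1 (0.32) and Tgtp2 (0.35), Ifi47 (0.26) and Gm12250 (0.36). The call of Gbp10 held in all 22 alternatives, while those of Tgtp1, Tgtp2 and Gm12250 were each lost in 6 and that of Ifi47 in 2. In effector cells 3 rose and 0 fell, Gbp10 (0.33), Ifi47 (0.23) and Tgtp2 (0.32), with a median of 0.246. Of all tested genes 1.45% rose and 1.72% fell there. The effector call of Tgtp2 was lost in 8 alternatives and that of Ifi47 in 3. Near-identical copies make some of these values uncertain: of the 50-base stretches of the GENCODE transcripts of Tgtp1 and Tgtp2, 91.4% and 90.6% occur in another gene, and of those of Gbp6 and Gbp10, 90.2% and 82.5%. Summed, Tgtp1 and Tgtp2 changed by 0.33 in naive cells (adjusted p = 0.025) and 0.27 in effector cells (adjusted p = 0.042). Gbp6, Gbp10 and Gm43302 summed changed by 0.40 (adjusted p = 6.1e-04) and 0.33 (adjusted p = 0.0011). Among the members the share of such stretches with other genes ran from 0.234% (Gbp5) to 12.8% (Gbp4 and Gbp7).

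Between effector and naive cells Gbp3, Gbp5 and Gbp7 of chromosome 3 rose most among the members, and the changes of the others were smaller. In KO 6 of 10 members rose and 0 fell, where 31.6% of all genes rose, 26.8% fell and 58.4% changed. In WT 6 rose and 0 fell, where 30.2% of all genes rose, 25.9% fell and 56.2% changed. With both directions pooled, members passed in about the same share as genes at large. By direction, the members called all rose, which was not tested. Effector libraries lay above naive ones in 6 members in each genotype, as in 34% of all genes in KO and 32.4% in WT, and below them in 0, as in 29.9% and 29.1%. Without KO naive library 7 the KO count was 3, and with any one library left out the WT count was 5 to 7. These comparisons share libraries with the KO comparisons, so the values are given side by side only.

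Gbp3, Gbp5 and Gbp7, which lie together on chromosome 3, had the largest rises. Gbp3 was at 83.2, 76.2 and 68.8 CPM in KO effector against 21.4 to 23.9 CPM in KO naive, and at 76.1, 62.2 and 60.8 CPM in WT effector against 15.2 to 16.6 CPM in WT naive. That is a log2 change of 1.77 ± 0.085 in KO and 2.06 ± 0.093 in WT, far outside the spread (edgeR adjusted p = 3.3e-13 and 1.5e-13). Gbp5 rose by 0.95 ± 0.064 in KO and 1.03 ± 0.068 in WT, and Gbp7 by 0.65 ± 0.054 and 0.65 ± 0.055. Gbp2, at the other end of the same cluster, was at 101 to 109 CPM in KO effector and 98.7 to 105 CPM in KO naive, and did not pass in either genotype (0.04 and 0.12). Gbp2b, which lies between Gbp3 and Gbp2, rose by 2.56 in KO and 3.19 in WT, from 1.05 to 2.16 CPM over the naive libraries.

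The IRG members of chromosome 11 changed by at most 0.21 on the log2 scale between the cell types, and some of these changes passed. Irgm1 was at 175 to 182 CPM in KO effector and 172 to 178 CPM in KO naive (log2 0.03 ± 0.041, edgeR adjusted p = 0.54). It was at 151 to 160 CPM in WT effector and 133 to 138 CPM in WT naive, where the rise of 0.19 ± 0.042 passed (edgeR adjusted p = 4.8e-04). Igtp passed in neither genotype, at -0.10 ± 0.048 in KO (adjusted p = 0.076) and 0.03 ± 0.049 in WT (adjusted p = 0.61). Irgm2 rose by 0.14 in KO (adjusted p = 0.019) and 0.21 in WT (adjusted p = 8.7e-04). Summed with Igtp it did not pass, at -0.006 in KO and 0.10 in WT (adjusted p = 0.93 and 0.066). Iigp1 rose by 0.52 ± 0.157 in KO (adjusted p = 0.017) and was at 0.38 ± 0.169 in WT (adjusted p = 0.086). On chromosome 5, Gbp9 rose by 0.17 in KO (adjusted p = 0.0063) and 0.13 in WT (adjusted p = 0.029). Gbp4 did not pass (-0.03 and 0.05), nor did the sum of Gbp4, Gbp8 and Gbp9, at 0.10 in KO and 0.14 in WT (adjusted p = 0.15 and 0.055).

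The relatives moved in both directions. In KO 8 of the 17 rose and 5 fell, and in WT likewise 8 rose and 5 fell, where 31.6% and 30.2% of all genes rose and 26.8% and 25.9% fell. Tgtp1 fell by 0.67 in KO and by 0.60 in WT, Tgtp2 fell by 0.47 and by 0.45, and Ifi47 fell by 0.25 and by 0.22. The chromosome 18 relatives of Iigp1 rose from under 2 CPM in every naive library, Gm4841 by 3.16 in KO and 3.41 in WT, F830016B08Rik by 3.60 and 3.97 and Gm4951 by 2.11 and 2.04. Igtp, Irgm2, Tgtp1 and Tgtp2 hold the GAS and ISRE block shown above, and their effector against naive changes had different signs. Their KO against WT changes in naive cells ran from 0.29 to 0.35. Gm12185, the fifth gene with the block, did not pass in any of the 4 comparisons, with 0.19 for KO against WT in naive cells (adjusted p = 0.32).

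**Figure D3:**
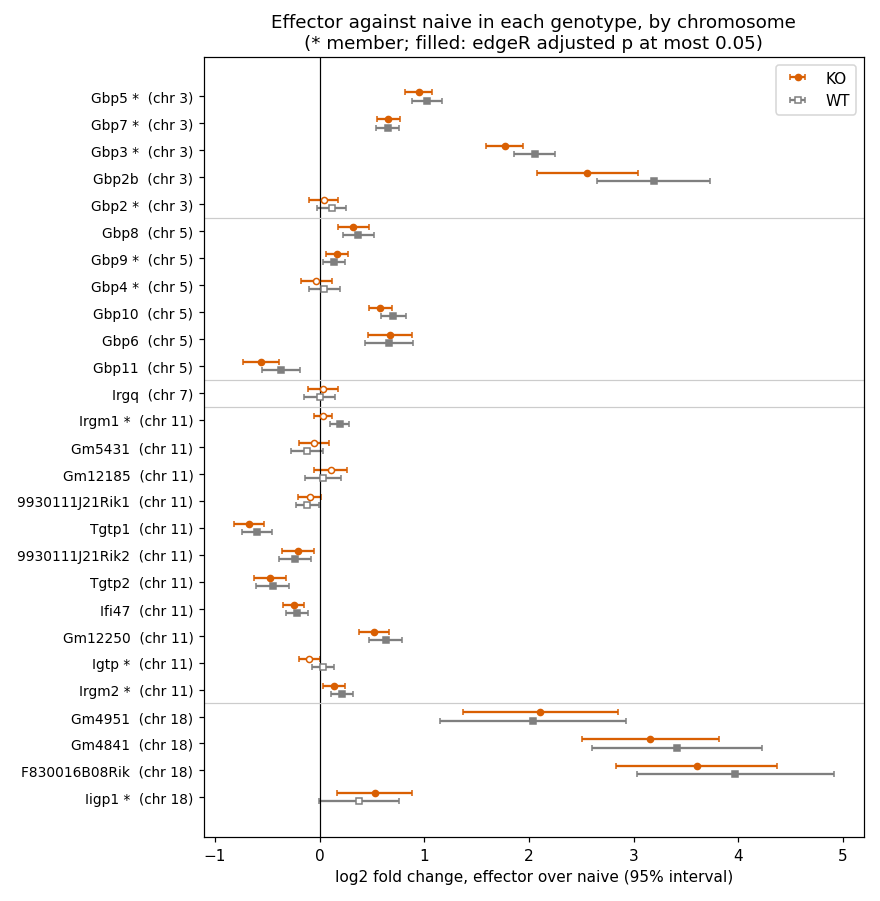
Log2 fold change of effector over naive cells (horizontal axis) in KO (circles) and WT (squares), with 95% intervals, for the 10 members (starred) and 17 relatives in chromosome order; filled symbols passed the edgeR test. The chromosome 3 members Gbp3, Gbp5 and Gbp7 lie between 0.65 and 2.06, the IRG members on chromosome 11 within 0.21 of 0, and Tgtp1 and Tgtp2 below 0.

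Within each group most members had their highest level in the same library. KO naive library 8 was the highest of its group for 9 of 10 members, and WT naive library 2 the lowest of its group for 8 of 10. KO effector library 10 was the highest for 10 of 10, and WT effector library 4 the highest for 10 of 10. The share of all tested genes with the same extreme libraries was not counted, so these counts describe the members alone. Gbp4 with Gbp9 and Igtp with Irgm2 have overlapping models and are not fully separate counts. The highest library exceeded the lowest by 1.04- to 1.17-fold within KO naive and by 1.03- to 1.43-fold within WT naive. It did so by 1.04- to 1.21-fold within KO effector and by 1.05- to 1.44-fold within WT effector, with Iigp1 at the top of the range in both WT groups. Its coefficient of variation was 17.5% in WT naive and 20.8% in WT effector, and that of Irgm1 was 1.72% and 2.75%. 

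Genes outside the family were ranked by how closely they followed the mean of the members over the 12 libraries, with log2(CPM + 1) centred within each cell type. Among 10970 genes with a mean of at least 5 CPM, those close to the members by Pearson r included Dis3l2 (0.955), an RNA exonuclease, Dtx3l (0.942), an interferon-induced ubiquitin ligase, Ncoa1 (0.936) and Samsn1 (0.931), then Hpn (0.922), Sp140 (0.918), Mrpl49 (0.916), Kcnip2 (0.912) and Nfkb1 (0.907). The members' own r with their mean ran from 0.889 (Gbp4) to 0.977 (Igtp). Each member is part of that mean, which raises its r, so these values cannot be set against those of outside genes. The libraries share genotype, cell type and preparation, so r is a description. The order was not stable, since 2 of the first 10 genes were also among the first 10 in naive libraries alone and 1 in effector libraries alone.

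**Figure D4:**
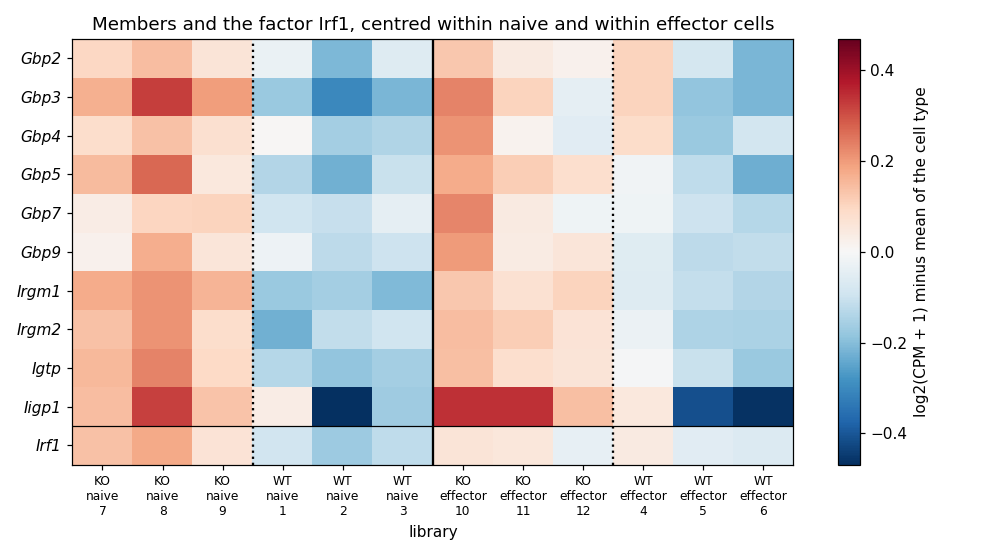
log2(CPM + 1) of the 10 members and Irf1 (rows) in each library (columns), as a difference from the mean of the cell type (colour scale). KO naive library 8 holds the highest value of its group for 9 of 10 members and KO effector library 10 for 10 of 10, while WT naive library 2 and WT effector library 6 hold the lowest for 8 of 10 each.

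Upstream of the members stand the ligand and receptor of the interferon gamma pathway. Ifng, the ligand, was at 8.23, 8.62 and 7.71 CPM in KO effector against 7.07, 13.95 and 11.15 CPM in WT effector. The groups overlapped, at log2 -0.37 ± 0.214 and an edgeR adjusted p of 0.43, and in naive libraries Ifng was under 0.3 CPM in every one. The receptor chains Ifngr1 (log2 -0.06 in naive and -0.08 in effector cells) and Ifngr2 (0.05 and 0.20), the kinases Jak1 (-0.05 and -0.09) and Jak2 (0.04 and -0.03) and the phosphatases Ptpn2 (0.07 and -0.16) and Ptpn6 (0.06 and 0.07) did not pass. Neither did Pias1 (-0.13 and -0.03) or Socs1, the feedback inhibitor (0.27 and 0.25).

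Irf1, a transcription factor known to act on GBP and IRG promoters, rose in KO naive cells. So did Nlrc5, a regulator of MHC class I genes, and neither passed in effector cells. The naive call of Irf1 held in all 21 alternatives and that of Nlrc5 was lost in 7. Irf1 was at 350, 360 and 333 CPM in KO naive against 299, 283 and 293 CPM in WT naive (log2 0.25 ± 0.046, edgeR adjusted p = 0.0052). In effector cells its groups overlapped, with 319 to 342 CPM in KO and 313 to 338 CPM in WT (log2 0.05 ± 0.046, adjusted p = 0.64). The difference of these effects, -0.20 ± 0.065, did not pass (adjusted p = 0.28). Nlrc5 was at log2 0.22 in naive cells (adjusted p = 0.042) and 0.17 in effector cells (adjusted p = 0.087).

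A part of the interferon-induced genes outside the family rose in KO, where 0.679% of all genes rose in naive and 1.45% in effector cells. Of 21 interferon gamma target genes outside the family, 4 rose in KO naive and 3 in KO effector cells and 0 fell, with medians of 0.2 and 0.14. Of 24 type I interferon target genes, 11 rose in naive and 17 in effector cells and 0 fell, with medians of 0.309 and 0.312. In effector cells the members' median of 0.2 thus stood below that of the type I targets and above that of the gamma targets, a difference that was not tested. Examples are the antiviral Ifit1 (log2 0.46 in naive and 0.52 in effector cells), Oasl2 (0.48 and 0.65) and Usp18, the inhibitor of type I signalling (0.46 and 0.67). In the type I receptor pathway 2 of 8 genes rose in naive cells, Usp18 and Irf7 (0.31), and 3 of 8 in effector cells, Usp18, Stat2 (0.23) and Irf9 (0.18). The lists overlap, so their counts are not separate. Usp18, Irf7 and Stat2 are also among the type I targets, and Irf1 and Nlrc5 among the gamma targets.

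Genes that serve the GBPs and IRGs after translation gave no call. Of 16 tested genes for membrane targeting and inflammasomes, such as the ATG conjugation genes, Casp1 and Aim2, edgeR called 0 in naive and 0 in effector cells, with medians of -0.017 and 0.008. Of 5 genes for the prenylation that anchors GBP2 and GBP5 to membranes, it likewise called 0 in each, with medians of 0.002 and 0.008. Over all tested genes 1.18% were called in naive and 3.16% in effector cells. At those shares, lists this short would hold few calls or none.

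**Figure D5:**
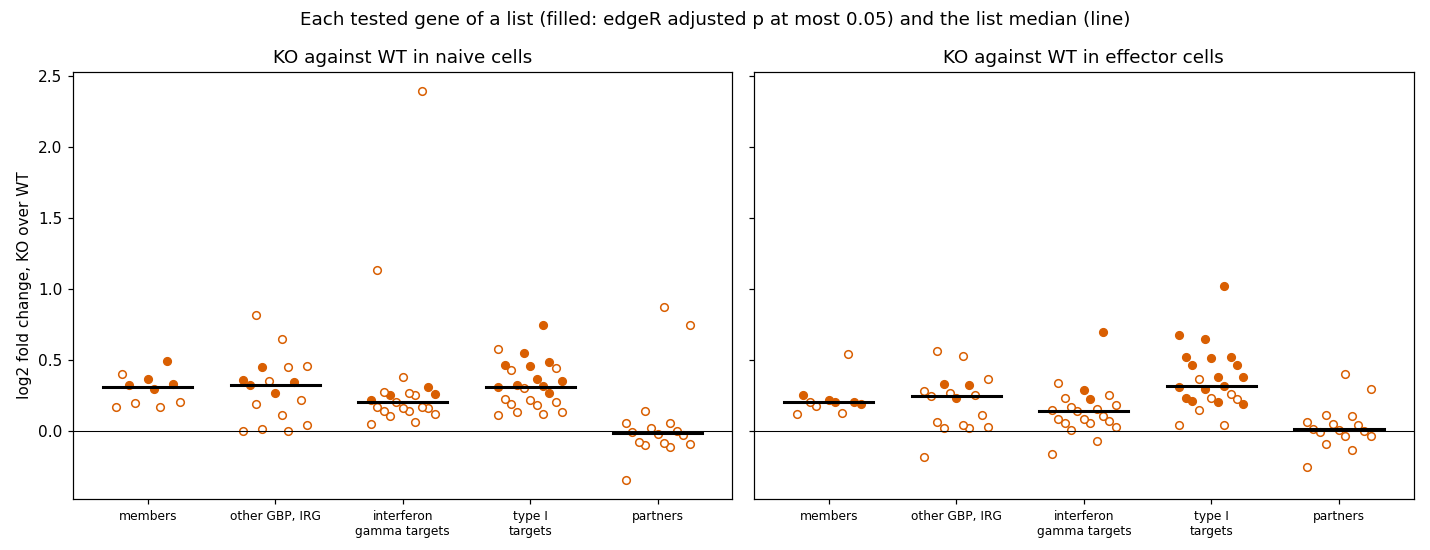
Log2 fold change of KO over WT (vertical axis) for each tested gene of 5 lists in naive cells (left) and effector cells (right); filled points passed the edgeR test and lines are list medians. The medians of members, relatives and interferon targets lie between 0.14 and 0.322, and those of the partners within 0.05 of 0.

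Markers of other cell types moved with genotype beside these values. Treg markers (Foxp3, Il2ra, Ctla4 and Ikzf2) summed to 148 to 160 CPM in KO naive and 125 to 138 CPM in WT naive, and to 1270 to 1480 CPM in KO effector and 1070 to 1250 CPM in WT effector, with 0 and 2 of 4 called higher. Myeloid markers (Lyz2, Csf1r, Fcer1g and 6 more) summed to 13.4 to 25.1 CPM in KO naive and 3.26 to 12.9 CPM in WT naive, and to 19.2 to 32.2 CPM in KO effector and 4.91 to 27 CPM in WT effector, with 0 of 8 called in either. Th1 markers, which include Ifng, summed to 246 to 265 CPM in KO effector and 316 to 366 CPM in WT effector, with 2 of 4 lower, and to 1.6 to 2.05 CPM in KO naive and 1.05 to 1.45 CPM in WT naive, with 0 called. Markers of NK and other innate-like lymphocytes (Ncr1, Zbtb16, Trdc and 3 more) summed to 121 to 160 CPM in KO effector and 194 to 196 CPM in WT effector, with 3 of 5 lower. In naive cells they summed to 11.2 to 13.5 CPM in KO and 8.96 to 12.6 CPM in WT, which overlap, with 0 of 5 called. Of these 5 genes, 4 stood above WT in every KO library, as did 10.7% of all tested genes. Of the 6 effector markers given above, 3 were called higher in KO naive, with a median log2 of 0.629, and 2 lower in KO effector, with a median of -0.252. In KO naive library 8, highest for most members, the Treg sum was the lowest of its group and the myeloid sum the highest. WT effector library 4, highest for each member, had the lowest myeloid sum and the highest Treg sum of its group. KO effector library 10, also highest for each member, had the lowest myeloid sum and the middle Treg sum. WT naive library 2, lowest for most members, had the middle sum of both. Of these markers Zbtb16 and Klra8 were at 0 throughout WT naive, and their part in the members' values was not tested.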

How the data were processed

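The authors deposited whole-number counts per gene and FPKM values for 12 libraries, per the file headers. Libraries were made with a stranded mRNA kit, per the labels' protocols. The submitters' processing notes name STAR, Picard and DESeq2 1.30.0, with builds GRCm38 and mm10, and give no role. The sources used here give neither the read counter nor its strand setting. On 13492 genes the deposited FPKM equalled counts divided by a gene length and a library size factor. Columns were matched to groups by name.

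Counts were fitted in R 4.3.3 with edgeR 4.0.16 (filterByExpr, TMM factors 0.968 to 1.04, 1 robust quasi-likelihood fit over 12 libraries, each group with its own mean). P-values were adjusted over 15905 genes at 0.05, and SE came from the fold change and F. The biological coefficient of variation was 5.21%. Libraries of a group differed beyond sampling noise (chi-square per gene 2.25 to 5.92). CPM are TMM-scaled, and FPKM compare genes.

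The members, gene lists and tests were chosen with earlier results of these data known. Named genes are all members and tested relatives, Rinl, every tested gene of the gamma ligand and receptor list, up to 4 called genes of each other list per KO comparison, and the 10 genes most like the members. Results that need certain withheld genes are not reported here. Alternatives were DESeq2 1.42.0 and its size factors, limma 3.58.1 (voom, or log2 of FPKM plus 1 or 0.1), no filter, a mean of at least 5 CPM, fits of only the groups compared, and each library left out. Thinned counts and summed overlapping genes were added after seeing the data.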

Additional observations from a re-analysis of the deposited data

How the results depend on the processing

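Under every alternative that gave a value, all 10 members stayed higher in KO in naive and in effector cells. The median of the members ran from 0.273 to 0.346 in naive and from 0.156 to 0.232 in effector cells. The calls of Irgm1, Irgm2 and Igtp in naive cells held in all alternatives. The cause of the changes below was not tested.

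Members called in naive cells, 5 in the reported fit, were 8 with no filter on low counts, 9 with only the groups compared, 3 with FPKM plus 1 and 3 to 5 with a library left out. In effector cells, also 5, they were 0 with only the groups compared, 1 with FPKM plus 1, 1 with FPKM plus 0.1 and 1 to 8 with a library left out. For effector against naive in KO, 6 members were called and 3 to 7 with a library left out, 3 without KO naive library 7.

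All genes called in naive cells, 187 in the reported fit, were 501 with no filter, 528 with only the groups compared, 46 with FPKM plus 1, 87 with FPKM plus 0.1 and 66 to 255 with a library left out. In effector cells, 503, they were 959, 230, 285 and 141 under the same settings and 194 to 662 with a library left out. For the difference of the KO effects, 23, they were 52 with DESeq2, 9 with limma-voom, 277 with no filter, 13 with FPKM plus 1, 9 with FPKM plus 0.1 and 10 to 85 with a library left out.

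Directions turned for values near 0. In naive cells Irgq was at 0.00494 with DESeq2 size factors, 0.005319 with DESeq2, 0.002695 with no filter, 0.006675 with a mean of at least 5 CPM, 0.007957 with FPKM plus 1, 0.009667 with FPKM plus 0.1, 0.006965 with thinned counts and -0.02747 to 0.07105 with a library left out. Under the same settings except thinning 9930111J21Rik1 was at 0.006074, 0.00642, 0.004231, 0.00768, 0.006655, 0.006816 and -0.02346 to 0.04215. The Gbp7 difference of KO effects was -0.006089 with a mean of at least 5 CPM, -0.001206 with FPKM plus 0.1 and -0.01268 with thinned counts. With overlapping genes summed, effector against naive in KO was 0.1001 for the sum with Gbp4 and -0.005674 for the sum of Igtp and Irgm2. The difference was -0.03472 for the sum with Gbp9. Gbp4 and Gbp9 are in the same sum, with Gbp8. These signs are those of the sums and not of single genes, and Irgm2 alone rose in the reported fit.

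With a library left out, log2 fold changes in naive cells ran from -0.008625 to 0.08681 (Gm5431), -0.01406 to 0.05872 (9930111J21Rik2), -0.1077 to 0.8838 (Gm4951) and -0.6626 to 0.8323 (Ifng). In effector cells they ran from -0.01043 to 0.1342 (Gbp8), -0.01209 to 0.05226 (Gbp11), -0.02986 to 0.06425 (9930111J21Rik1), -0.03843 to 0.08546 (9930111J21Rik2), -0.01666 to 0.5323 (F830016B08Rik) and -0.01689 to 0.07304 (Irgq). For effector against naive they ran from -0.0333 to 0.09961 (Gbp4 in WT), -0.01742 to 0.06816 (Igtp in WT) and -0.1111 to 0.02099 (Gbp4 in KO). The difference ran from -0.1536 to 0.01442 (Gbp2), -0.1542 to 0.001582 (Gbp4), -0.07001 to 0.05504 (Gbp7), -0.01875 to 0.0667 (Gbp9) and -0.004585 to 0.3359 (Iigp1).

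Genes under about 3 CPM in naive cells, such as Gbp2b, Gm4841 and Ifng, rest on few counts. The naive call of Gbp3 was lost with thinned counts. It was lost too without WT naive library 2, KO naive library 8 or KO naive library 9, and with FPKM plus 1. The part of depth in this was not tested. No paired analysis was possible because the table columns carry none of the replicate numbers of the labels.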
